A study of Mus musculus with 6 samples.

Results

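Cadherins are calcium-dependent adhesion molecules that join neighbouring cells, and the transcripts of 87 of their genes were followed here in the ageing auditory nerve of the mouse. The genes were the rows of a table of 17607 genes whose symbol begins with Pcdh or with Cdh and a digit, with a mean of at least 10 normalised reads over the 6 libraries, and 3 genes of that name were set aside beforehand. All 87 passed the filter on low values. They fall into 19 cadherins (5 of type I, 12 of type II and the atypical Cdh13 and Cdh26), 58 clustered protocadherins (14 alpha, 22 beta and 22 gamma) and 10 other protocadherins (4 of the delta-1 group, 5 of the delta-2 group and Pcdh12). Nerves came from inbred CBA/CaJ mice with no transgene or treatment in the labels, 3 old (2.5 years) and 3 young (2 months), and each library pooled both cochleas of 1 mouse, so replicates are separate animals. The labels give no sex. The comparison asked which adhesion transcripts differ between old age and young adulthood in this nerve.

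Type I and type II cadherins bind like molecules on the opposing cell and are anchored to actin through catenins. They hold epithelia and endothelia together and sort neurons and glia into layers and bundles. The clustered protocadherins lie in adjoining arrays in which each alpha or gamma gene has its own first exon, spliced to constant exons that the array shares, while each beta gene is a single coding exon. Neurons choose among the alternate promoters of these arrays, which gives each cell its own surface code, whereas the last genes of the alpha and gamma arrays, the C-type genes, are used more broadly. Delta-protocadherins stand alone in the genome and several of them bind the WAVE complex, which builds branched actin. In the auditory nerve these molecules sit on the spiral ganglion neurons, on Schwann cells and satellite glia, and on the vessels and sheath.

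Depth was similar throughout, from 34587979 to 38835751 recovered reads in old libraries and from 35213213 to 40841478 in young libraries. Values are normalised read counts, that is, reads divided by 1 size factor per library. Fold changes are differences of log2(value + 1), old minus young, given with the SE, adjusted p-values come from limma with adjustment over all 15882 genes tested, and a gene is said to have risen or fallen only below an adjusted p of 0.05. Of all genes tested 34.6% passed, 15.9% higher and 18.7% lower in old nerves (2524 and 2969 genes, against 3439 and 2338 with upper-quartile scaling). Neuronal markers of the labelled tissue were abundant. The 12 neuronal markers, with Snap25 and Nefh the most abundant, summed to 228810 to 337097 in old nerves and 379737 to 411660 in young nerves. Of the neuronal markers 4 of 12 fell, namely Rbfox3, Elavl3, Nefl and Nefm, which are named after their values were seen. The sum of 12 epithelial markers was 12008 to 17845 in old nerves and 3925 to 7366 in young nerves (12 of 12 rose), and that of 10 macrophage markers was 14415 to 21827 in old nerves and 5517 to 7332 in young nerves (9 of 10 rose). The sum of 11 osteoblast and osteocyte markers was 2945 to 5450 in old nerves and 7289 to 10166 in young nerves (8 of 11 fell). The 10 markers of nonmyelinating and satellite glia summed to 274112 to 322643 in old and 218928 to 235026 in young nerves (2 rose, 3 fell). The 10 pericyte and smooth muscle markers summed to 13760 to 15147 in old and 16791 to 20697 in young nerves (0 rose, 3 fell). Sums of 10 myelinating Schwann cell markers overlapped, at 355942 to 407780 in old and 356138 to 404357 in young nerves (1 rose, 4 fell). In such whole-tissue samples fewer cells of a type and less RNA per cell cannot be told apart, and the part of these markers in the changes below was not tested.

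Of the 87 genes, 22 fell (25.3%, against 18.7% of all genes tested) and 3 rose (3.45%, against 15.9%), and 62 did not pass. The median log2 fold change was -0.25 over the 87 genes and -0.00 over all genes. The old and young libraries did not overlap in 31 of the 87 genes (26 lower and 5 higher in old nerves). Of all genes 51.8% had no overlap (26.3% lower and 25.5% higher). By group, the falls made up 4 of 19 cadherins, 11 of 58 clustered protocadherins and 7 of 10 other protocadherins, which is 21.1%, 19.0% and 70.0%, against 18.7% of all genes. For the other protocadherins the share was 3 of 10 with trends in transcript length and GC content removed, against 13.3% of all genes, and 2 of 10 without young 1 and old 2, against 5.97%. Differences between the groups were not tested. The median log2 fold changes of the groups, in that sequence, were -0.41, -0.13 and -0.77. The rises were Cdh13, Pcdhb1 and Pcdhb9. Only 11 of the 25 changes also passed in each of the 6 fits that left out 1 library, namely the falls of Cdh4, Cdh6, Pcdh1, Pcdh10, Pcdh12, Pcdh18, Pcdha12, Pcdhgc3 and Pcdhgc4 and the rises of Pcdhb1 and Pcdhb9. In the 4 libraries other than young 1 and old 2, 8 of the 87 genes passed (6 lower, 2 higher), where 11.2% of all genes passed and 5.97% were lower. Shared with the full comparison were 6 of them, Pcdh10, Pcdh18, Pcdha12, Pcdhb1, Pcdhb9 and Pcdhgc3, and the other 19 calls were lost. With smooth trends in transcript length and GC content taken out of each library 13 were lower and 4 higher, against 13.3% and 11.7% of all genes.

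Per kilobase of transcript, Cdh1 (E-cadherin, best known from epithelia) had the highest level of the 86 genes with a known length, at 2070 normalised reads per kb in old nerves and 2075 in young nerves. Pcdhgc3, a C-type gamma protocadherin, followed at 935 in old and 1429 in young nerves. Next came Cdh2 (N-cadherin, of neurons and glia) at 555 per kb in old and 875 in young nerves, Cdh5 (VE-cadherin, of endothelial junctions) at 549 in old and 703 in young nerves, and Pcdhac2 at 436 in old and 744 in young nerves. The lowest levels in old nerves were those of Pcdh12, at 2.04 per kb in old and 8.31 in young nerves, and of Cdh7, at 2.27 in old and 6.86 in young nerves. Lengths of alpha and gamma genes include the constant exons that each array shares, so their values per kb depend on how the reads of those exons were assigned.

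Among the type I cadherins Cdh2 and Cdh4 fell, and Cdh1, Cdh3 and Cdh15 did not pass. Cdh2 had 2106, 2755 and 3208 normalised counts in old 1, 2 and 3, against 4451, 4268 and 3988 in young 1, 2 and 3. Every old library was below every young one, and the means were 2689 ± 554 in old and 4236 ± 233 in young nerves (SD, n = 3 each; log2 fold change -0.68 ± 0.15, adjusted p = 0.0139). The call of Cdh2 was lost without young 2 (adjusted p = 0.0534). Cdh4 (R-cadherin, first described in the retina) had 449, 515 and 686 counts in old nerves, against 882, 984 and 912 in young nerves, again with no overlap (log2 fold change -0.77 ± 0.16, adjusted p = 0.0115). With the trends in transcript length and GC content removed Cdh4 stood at -0.42 and just missed the threshold (adjusted p = 0.0504). Without both young 1 and old 2 neither Cdh2 (-0.67, adjusted p = 0.0789) nor Cdh4 (-0.77, adjusted p = 0.0673) passed.

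For Cdh1 no difference between the ages was found. It had 9973, 9163 and 8374 counts in old nerves, against 8715, 9394 and 9468 in young nerves, and the groups overlapped (log2 fold change -0.01 ± 0.08, adjusted p = 0.963). Over the alternative settings its log2 fold change lay between -0.07 and 0.12, while all 12 epithelial markers rose, for example Epcam to 3386 ± 849.5 in old nerves, against 1375 ± 424 in young nerves (log2 fold change 1.32 ± 0.26, adjusted p = 0.0106). In each young library Cdh1 alone had more counts than those 12 markers summed (3925 to 7366). In each old library it had fewer counts than their sum (12008 to 17845). Which cells of the nerve the Cdh1 transcripts came from was not tested. Cdh3 (P-cadherin) averaged 191 ± 50.3 in old and 176 ± 28.1 in young nerves, and Cdh15 (M-cadherin, of muscle) 32.2 ± 4.63 in old and 24.9 ± 10.5 in young nerves. Both had overlapping groups.

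Of the type II cadherins 2 of 12 fell by limma (16.7%, against 18.7% of all genes) and 1 by edgeR. None rose by limma or edgeR, though at an unadjusted p under 0.05 and in DESeq2 1 gene was higher. Cdh6 (K-cadherin, of kidney and nervous system; chromosome 15 from 13028699 to 13173675 in mm10) had 506, 489 and 439 counts in old nerves, against 728, 684 and 657 in young nerves. Its 6 values left a clear gap between the ages (log2 fold change -0.53 ± 0.10, adjusted p = 0.00861), and the call was lost without both young 1 and old 2 (-0.51, adjusted p = 0.0618). Cdh18, a cadherin of the central nervous system, had 614, 752 and 706 counts in old nerves, against 909, 837 and 825 in young nerves (log2 fold change -0.31 ± 0.10, adjusted p = 0.0486). The groups of Cdh18 did not overlap, but its call was lost in 5 of the 6 fits without 1 library, all but the one without old 2 (adjusted p = 0.109 without old 1, 0.0628 without old 3 and 0.142, 0.112 and 0.102 without young 1, 2 and 3). It was also lost by edgeR (adjusted p = 0.0505) and with upper-quartile scaling (-0.23, adjusted p = 0.110 by limma).

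The gene higher in DESeq2 was Cdh19, a cadherin of the Schwann cell lineage. It had 1981, 1290 and 1476 counts in old nerves, against 996, 1298 and 1030 in young nerves, where old 2 was just below young 2 (log2 fold change 0.50 ± 0.17, adjusted p = 0.0607 by limma and 0.0208 by DESeq2). Cdh22 had 181, 232 and 392 counts in old nerves and 354, 553 and 431 in young nerves, with old 3 above young 1 (-0.79 ± 0.30, adjusted p = 0.0777 by limma and 0.0463 by DESeq2). Cdh9 averaged 631 ± 158 in old and 879.7 ± 228 in young nerves (-0.47 ± 0.25), and Cdh24 averaged 145 ± 34.0 in old and 125 ± 7.31 in young nerves (0.19 ± 0.21).

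Cdh5 marks endothelial junctions. It had 1922, 2890 and 1766 counts in old nerves, against 3022, 2462 and 2940 in young nerves, and old 2 exceeded young 2 (log2 fold change -0.39 ± 0.19, adjusted p = 0.146). Without old 2 it passed (adjusted p = 0.0190), and without both old 2 and young 1 it stood at -0.55 (adjusted p = 0.0476). The 12 endothelial markers, which did not include Cdh5, summed to 16807 to 20086 in old and 18063 to 21101 in young nerves, with 1 gene higher and 3 lower.

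The rise among the cadherins was that of Cdh13 (T-cadherin), which lacks the intracellular part and is held by a lipid anchor. It had 568, 657 and 556 counts in old nerves, against 409, 460.0 and 450.4 in young nerves, with every old library above every young one (log2 fold change 0.43 ± 0.11, adjusted p = 0.0213). The call was lost without old 2 (adjusted p = 0.0604) and without young 1, 2 or 3 (0.0678, 0.0580 and 0.0614). Cdh26, the other atypical gene, had few reads, from 0.967 to 19.0 counts in old and 4.40 to 21.6 in young nerves.

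**Figure D1:**
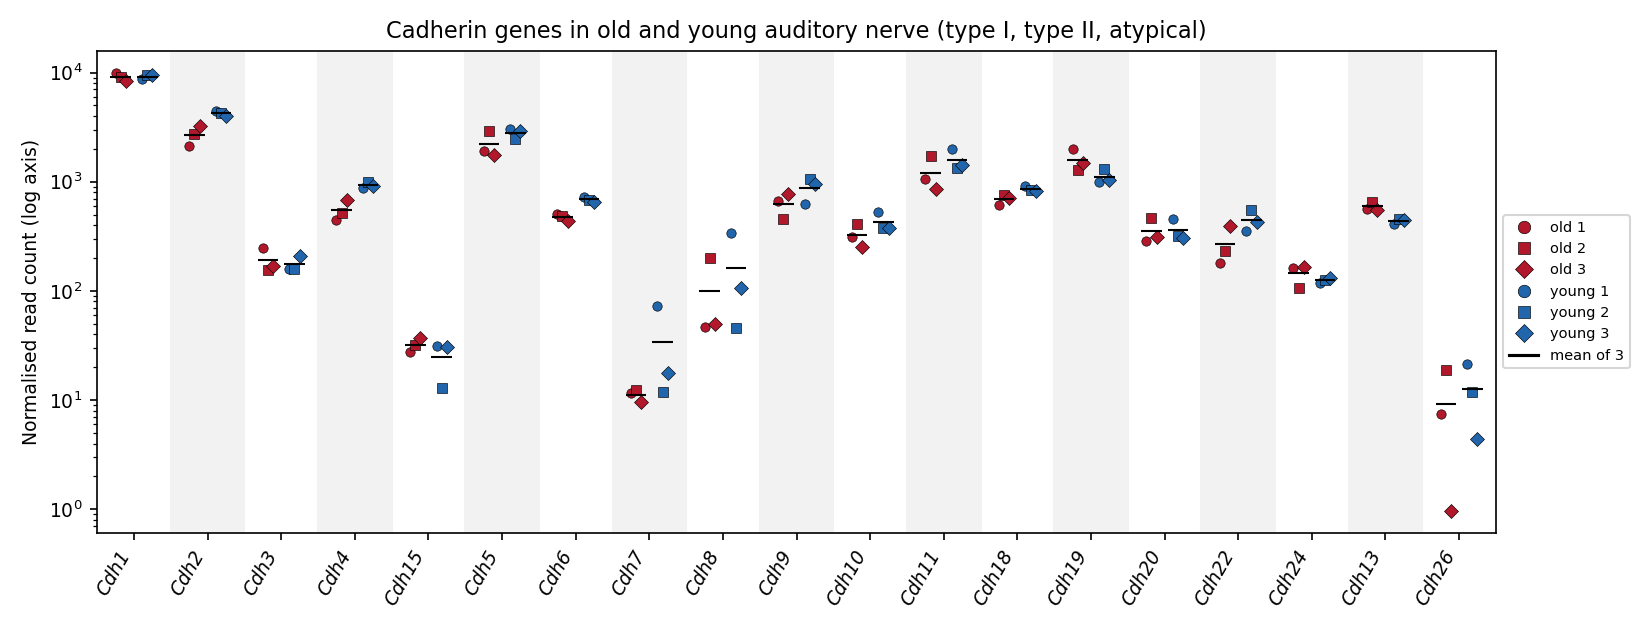
Normalised read count (log axis) of the 19 cadherin genes in each library, old in red on the left and young in blue on the right of each gene, with symbols for replicates 1, 2 and 3 and a bar for the mean of 3. Old values of Cdh2, Cdh4, Cdh6 and Cdh18 lie below all young values, those of Cdh13 lie above, and Cdh7 and Cdh8 have young 1 far above the other young libraries.

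Among the protocadherins outside the clusters 7 of 10 fell. None was higher by limma, edgeR or DESeq2, nor at an unadjusted p under 0.05. Pcdh18 (chromosome 3 from 49743296 to 49757316) had 204, 217 and 131 counts in old nerves, against 412, 442 and 464 in young nerves (184 ± 46.7 in old and 439 ± 26.0 in young nerves, SD, n = 3 each; log2 fold change -1.28 ± 0.20, adjusted p = 0.00657). All 3 old libraries were below all 3 young ones, and the fall passed without each library in turn, without both young 1 and old 2 (-1.47, adjusted p = 0.0334) and once trends in length and GC were taken out (-1.20, adjusted p = 0.0137). Pcdh10, known for axon guidance in the mouse forebrain, had 403, 448 and 423 counts in old nerves, against 979, 701 and 631 in young nerves (-0.83 ± 0.17, adjusted p = 0.0108). Its old libraries were close together and all below young 3, the lowest young value, and the fall also held in those settings (-0.69, adjusted p = 0.0385, without young 1 and old 2, and -0.64, adjusted p = 0.0330, with trends removed). An opposite-strand gene, 1700027H10Rik, shares 154 exon bases with Pcdh10, and the strand setting of the library kit is not stated.

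The other delta-2 genes differed in how far they moved. Pcdh19, whose human counterpart is mutated in an epilepsy of girls, had 340.4, 352 and 378 counts in old nerves, against 436, 509 and 442 in young nerves (log2 fold change -0.37 ± 0.11, adjusted p = 0.0368). The groups did not overlap, yet the call was lost in 5 of 6 fits without 1 library, all but the one without old 3 (adjusted p between 0.0644 and 0.131, the highest without young 2), and with trends removed the value was -0.01 (adjusted p = 0.969). Pcdh8 (arcadlin, induced by synaptic activity in rat hippocampus) was near the detection limit at 11.6, 13.3 and 50.3 counts in old and 22.6, 2.95 and 5.51 in young nerves, without a clear order (1.31 ± 0.82, adjusted p = 0.246).

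Of the delta-1 genes 3 of 4 fell (75.0%, against 18.7% of all genes). Pcdh7 (NF-protocadherin) had 2516, 3061 and 3743 counts in old nerves, against 4825, 4662 and 4411 in young nerves, with no overlap (log2 fold change -0.59 ± 0.14, adjusted p = 0.0168). Its call was lost without young 1 (adjusted p = 0.0516), without young 2 (0.0600) and with trends removed (-0.32, adjusted p = 0.102), and 2235 of its exon bases lie opposite the gene 4932441J04Rik. Pcdh1 had 487, 467 and 558 counts in old nerves, against 704, 759 and 751 in young nerves, again apart (-0.55 ± 0.10, adjusted p = 0.00832). That fall passed without each library in turn, missed the threshold without both young 1 and old 2 (-0.53, adjusted p = 0.0538) and came to -0.03 with trends removed (adjusted p = 0.828). Pcdh11x, on the X chromosome, had 92.0, 119.6 and 74.5 counts in old nerves, against 194, 149 and 135 in young nerves (-0.75 ± 0.23, adjusted p = 0.0431). No old value of Pcdh11x reached a young one, and its call was lost in 5 of 6 fits without 1 library, all but that without old 2 (adjusted p between 0.0694 and 0.125, the highest without young 1), and with trends removed (-0.64, adjusted p = 0.0808).

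Pcdh12, a protocadherin of endothelial cells, had the largest fall in log2 terms of the 87 genes at a low level. It had 13.7, 7.59 and 12.6 counts in old nerves, against 70.5, 32.4 and 35.2 in young nerves (log2 fold change -1.89 ± 0.41, adjusted p = 0.0141). The highest old value was less than the lowest young value, and the fall passed without each library in turn. Without both young 1 and old 2 it was -1.30 (adjusted p = 0.0695).

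**Figure D2:**
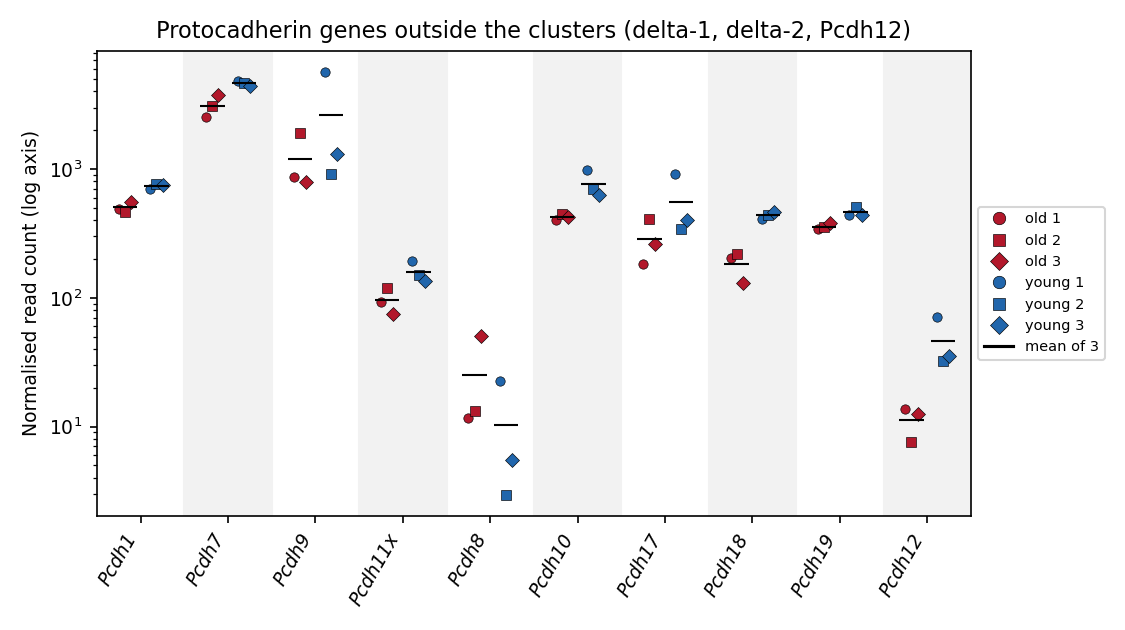
Normalised read count (log axis) of the 10 protocadherin genes outside the clusters in each library, old in red on the left and young in blue on the right of each gene, with the mean of 3 as a bar. The 7 genes that fell have no overlap between the ages, while Pcdh9 and Pcdh17 have young 1 and old 2 above the other libraries of their age.

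Pcdh9, Pcdh17, Cdh7 and Cdh8 varied more between libraries of one age than between ages. Pcdh9, abundant in brain neurons, had 870.0, 1903 and 798 counts in old 1, 2 and 3, against 5679, 917 and 1298 in young 1, 2 and 3. Young 1 was 5.13 times the mean of young 2 and 3 and old 2 was 2.28 times the mean of old 1 and 3, and no difference between ages passed (log2 fold change -0.78 ± 0.67, adjusted p = 0.393; -0.39 and 0.188 without those libraries). Pcdh17 had 183, 412 and 261 counts in old nerves, against 908, 341 and 403 in young nerves (-0.89 ± 0.42, adjusted p = 0.142). Here old 2 was above young 2 and young 3, and without old 2 and young 1 the values were -0.76 and 0.0752.

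Cdh8 had 46.5, 200.2 and 50.3 counts in old nerves, against 336, 46.2 and 107 in young nerves, so that old 2 and young 1 were each over 4 times the mean of the others of their age (4.14 and 4.39). Cdh7 had 11.6, 12.3 and 9.67 counts in old nerves, against 72.4, 11.8 and 17.6 in young nerves, and only young 1 stood apart (log2 fold changes -0.60 ± 0.81 for Cdh8 and -1.09 ± 0.64 for Cdh7). In milder form the same 2 libraries were highest in Cdh10 (312, 406 and 255 in old, against 527, 380.4 and 379.9 in young nerves), Cdh20 (285, 464 and 315 in old, against 451, 321 and 305 in young nerves) and Cdh11, a cadherin of mesenchyme and bone (1061, 1706 and 854 in old, against 1978, 1336 and 1432 in young nerves). None of these genes passed, though Cdh11 did without old 2 (adjusted p = 0.0398).

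Young 1 and old 2 were together the highest of their ages in 15 of the 87 genes (17.2%, against 13.2% of all genes tested). They were so in 8 of 19 cadherins, 4 of 10 other protocadherins and 3 of 58 clustered protocadherins. The 4 markers of central inhibitory neurons, a list added after the data were seen, had few reads. They summed to 58, 129 and 94 in old nerves and 271, 88 and 109 in young nerves, with the same 2 libraries highest. Gad2 (135 in young 1, against 10.8 and 7.71 in young 2 and 3) and Slc32a1 were also highest in those libraries. Gad1 was highest in young 3 (96.9, against 94.0 in young 1), and Slc6a5 in old 3 (8.70, against 5.69 in old 2). The sum of oligodendrocyte markers, also added after the data were seen, was 5209, 6933 and 8793 in old and 8376, 5920 and 5814 in young nerves, highest in old 3 and young 1. The part of these cells in the spread of Pcdh9, Cdh8 and the rest was not tested.

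**Figure D3:**
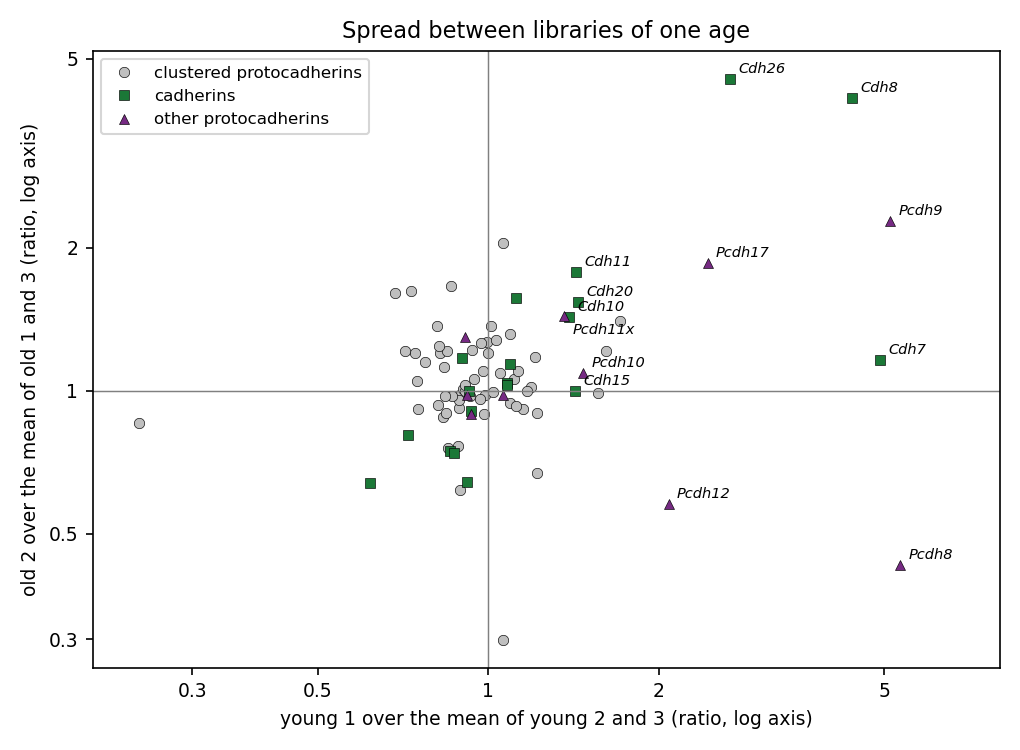
Each point is 1 of the 87 genes, placed by the ratio of old 2 to the mean of old 1 and 3 (vertical, log axis) and of young 1 to the mean of young 2 and 3 (horizontal, log axis), with squares for cadherins, triangles for other protocadherins and grey circles for clustered protocadherins. Cdh8, Cdh26, Pcdh9 and Pcdh17 lie in the upper right, where both libraries are high, and most clustered genes gather around 1.

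Upstream sequences are shown for 3 genes that fell and 3 whose counts were highest in young 1 and old 2, so that both patterns can be read beside the DNA before the start site. Each is the 250 bases before the RefSeq start in GRCm38.p6, 5′ to 3′ on the gene's own strand, with the GC box GGGCGG or its reverse complement CCGCCC in capitals. The search left out every gene that shares a chromosome with the protocadherin arrays, and so also Cdh2, Pcdh1 and Pcdh12, which fell. Of the remaining genes 18 had a matched entry, and 9 of these held a GC box, against 32.7% of 32851 promoters of the same window. The RefSeq start lay 49186 bases from the deposited gene start in Cdh9, 1382 in Cdh10 and 299 in Cdh20, and at it in the rest. The TATA box TATAAA (12.4% of promoters) and the E-box CAGGTG (17.2%), searched on both strands, overlapped no GC box and were each found in 1 of the 18 and in none of the 6 shown. The 3 shown of the genes that fell were Pcdh18 (chr3:49757317-49757566, minus strand), Pcdh10 (chr3:45378148-45378397, plus strand) and Cdh6 (chr15:13173676-13173925, minus strand).
Pcdh18: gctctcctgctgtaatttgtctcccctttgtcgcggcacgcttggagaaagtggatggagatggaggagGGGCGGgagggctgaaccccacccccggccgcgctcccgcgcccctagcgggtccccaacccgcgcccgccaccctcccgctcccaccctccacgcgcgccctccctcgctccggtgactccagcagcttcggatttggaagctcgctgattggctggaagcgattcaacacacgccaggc
Pcdh10: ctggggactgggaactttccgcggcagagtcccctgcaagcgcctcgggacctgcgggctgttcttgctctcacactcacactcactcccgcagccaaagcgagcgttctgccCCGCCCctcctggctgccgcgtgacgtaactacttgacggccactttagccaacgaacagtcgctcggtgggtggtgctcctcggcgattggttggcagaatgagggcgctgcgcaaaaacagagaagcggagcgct
Cdh6: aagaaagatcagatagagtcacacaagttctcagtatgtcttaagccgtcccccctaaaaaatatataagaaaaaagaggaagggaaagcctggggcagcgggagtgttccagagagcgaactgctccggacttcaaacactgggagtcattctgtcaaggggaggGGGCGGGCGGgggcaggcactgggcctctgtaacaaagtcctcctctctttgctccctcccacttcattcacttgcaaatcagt
The 3 with the library pattern were Pcdh9 (chr14:93890680-93890929, minus strand), Cdh8 (chr8:99416472-99416721, minus strand) and Pcdh17 (chr14:84443313-84443562, plus strand).
Pcdh9: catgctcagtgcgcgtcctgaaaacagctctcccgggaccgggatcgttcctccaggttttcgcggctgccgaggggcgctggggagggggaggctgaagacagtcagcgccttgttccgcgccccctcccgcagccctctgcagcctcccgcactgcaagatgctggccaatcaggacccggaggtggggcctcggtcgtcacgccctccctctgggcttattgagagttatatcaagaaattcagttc
Cdh8: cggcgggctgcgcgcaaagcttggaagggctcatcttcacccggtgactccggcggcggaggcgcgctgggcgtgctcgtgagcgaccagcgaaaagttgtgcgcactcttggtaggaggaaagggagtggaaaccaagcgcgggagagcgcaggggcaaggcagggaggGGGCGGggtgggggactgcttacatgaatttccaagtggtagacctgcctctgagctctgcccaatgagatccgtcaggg
Pcdh17: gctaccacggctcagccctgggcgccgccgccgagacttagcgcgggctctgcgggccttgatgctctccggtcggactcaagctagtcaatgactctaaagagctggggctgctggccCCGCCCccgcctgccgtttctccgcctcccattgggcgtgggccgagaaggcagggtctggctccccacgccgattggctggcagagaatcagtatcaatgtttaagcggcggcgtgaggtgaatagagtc
A GC box stood in the windows of the 3 falling genes shown (as 2 overlapping matches in Cdh6) and in 2 of the other 3, and Pcdh9 had none. Of the searched genes that fell but are not shown, Pcdh19 had a GC box and Cdh18 and Pcdh7 had none. The motif was thus not common to all the searched genes that fell. Cdh4 and Pcdh11x, which also fell, had no matched entry.

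In the clustered protocadherins, all 58 on chromosome 18, 11 genes fell and 2 rose, 19.0% and 3.45% of the group, and the median log2 fold change was -0.13. Of the 5 C-type genes 3 fell, against 8 of 53 alternate and beta genes, a difference that was not tested. Pcdhgc3, the clustered gene with the highest counts (37806410 to 37841872 on that chromosome), had 4421, 4672 and 4047 counts in old nerves, against 6602, 6930 and 6566 in young nerves. The 3 libraries of each age were close together and far from the other age (4380 ± 315 in old and 6700 ± 200.4 in young nerves, SD, n = 3 each; log2 fold change -0.62 ± 0.07, adjusted p = 0.00464). This fall passed in each fit without 1 library, without both young 1 and old 2 (-0.67, adjusted p = 0.0302) and, at a smaller size, with the length and GC trends removed (-0.35, adjusted p = 0.0306). On the opposite strand BC037039 overlaps 1559 of its exon bases, and on its own strand Gm38182 overlaps 628, Gm42416 446 and Gm37013 and Gm37388 91 each, as they do in most gamma genes.

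Pcdhgc4, which mouse knockouts have tied to neuron survival, had 333, 444 and 577 counts in old nerves, against 880.1, 1038 and 857 in young nerves. The groups did not overlap (log2 fold change -1.06 ± 0.20, adjusted p = 0.00891), and the call was lost without both young 1 and old 2 (-1.10, adjusted p = 0.0557). Pcdhgc5, the last of the array, had 347, 323 and 370.4 counts in old and 338, 296 and 258 in young nerves, with overlap (0.23 ± 0.14, adjusted p = 0.229), and it passed as a rise with trends removed (0.47, adjusted p = 0.0425). It was named after its values were seen.

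In the alpha array 2 of 14 genes fell (14.3%, against 18.7% of all genes). Pcdhac2, needed for the spacing of serotonergic axons in the mouse, had 1908, 2596 and 3203 counts in old nerves, against 4893, 4295 and 3955 in young nerves, with all old values below all young ones (log2 fold change -0.80 ± 0.18, adjusted p = 0.0165). The call was lost without young 1 (adjusted p = 0.0513) and without young 2 (0.0563). Pcdhac1, named after its values were seen, had 153, 269 and 290.1 counts in old nerves, against 507, 309.6 and 318 in young nerves, apart but not past the threshold (-0.69 ± 0.29, adjusted p = 0.109). Pcdha12 had 155, 135 and 131 counts in old nerves, against 291, 295 and 242 in young nerves. The highest old value was far below the lowest young one, and the fall passed in each fit without 1 library (-0.97 ± 0.15, adjusted p = 0.00598). It shares 531 exon bases with Gm10545 on the opposite strand. Among the other abundant alpha genes, Pcdha2 averaged 399 ± 58.1 in old and 425 ± 45.6 in young nerves, and Pcdha10 309.9 ± 23.8 in old and 315 ± 3.28 in young nerves.

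The beta array held both rises and 4 falls among 22 genes (9.09% and 18.2%, against 15.9% and 18.7% of all genes). Pcdhb9 had 1029, 993 and 1013 counts in old nerves, against 454, 570.1 and 513 in young nerves, with the old libraries almost equal (1012 ± 17.6 in old and 512 ± 58.0 in young nerves; log2 fold change 0.99 ± 0.10, adjusted p = 0.00405). Pcdhb1, the first gene of the array, had 80.3, 62.6 and 65.8 counts in old nerves, against 3.76, 14.7 and 16.5 in young nerves, and no library crossed over (2.68 ± 0.52, adjusted p = 0.00998). Both rises passed in each fit without 1 library, without both young 1 and old 2 (0.92 and 2.15, adjusted p = 0.0268 and 0.0302) and with trends removed (0.92 and 2.56, adjusted p = 0.00845 and 0.0187).

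The falls of the beta array were smaller. Pcdhb16 had 662, 585 and 608 counts in old nerves, against 772, 872 and 866 in young nerves (log2 fold change -0.43 ± 0.09, adjusted p = 0.0133), and Pcdhb19 had 242, 269 and 291 in old nerves, against 364, 369 and 439 in young nerves (-0.54 ± 0.13, adjusted p = 0.0191). Neither had overlapping groups. The call of Pcdhb16 was lost without young 2 or 3 (adjusted p = 0.0588 and 0.0558), and that of Pcdhb19 without old 1, young 2 or young 3 (0.0520, 0.0554 and 0.0716) and with trends removed (-0.43, adjusted p = 0.0687). Pcdhb15 (-0.50 ± 0.15) and Pcdhb21 (-0.42 ± 0.12), named after their values were seen, fell too, with adjusted p = 0.0394 and 0.0331, and both lost the call in every fit without 1 library (adjusted p = 0.0502 to 0.135 and 0.0514 to 0.102). The most abundant beta gene by counts over both ages, Pcdhb17, averaged 788 ± 23.9 in old and 939 ± 74.8 in young nerves with no overlap (-0.25 ± 0.09, adjusted p = 0.0611).

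In the gamma array 5 of 22 genes fell (22.7%, against 18.7% of all genes). These were the C-type Pcdhgc3 and Pcdhgc4 and the alternate genes Pcdhga1, Pcdhga2 and Pcdhga12. Pcdhga12 had 100.4, 121 and 132 counts in old nerves, against 177, 176 and 213 in young nerves (log2 fold change -0.68 ± 0.17, adjusted p = 0.0216), and Pcdhga1 had 294, 267 and 238 in old nerves, against 344, 357 and 401 in young nerves (-0.47 ± 0.13, adjusted p = 0.0294). No old value of either reached a young one. Without old 1, young 2 or young 3 Pcdhga12 missed the threshold (adjusted p = 0.0571, 0.0611 and 0.0830), and Pcdhga1 missed it in every fit but that without old 1 (0.0550 to 0.107). Pcdhga2, named after its values were seen, stood at -0.63 ± 0.18 (adjusted p = 0.0346) and passed in 1 of those fits, without old 3 (0.0794 to 0.105 in the others). With trends removed none of the 3 passed by limma, with Pcdhga12 at -0.43 (adjusted p = 0.0864), Pcdhga1 at -0.30 (0.151) and Pcdhga2 at -0.42 (0.101). The abundant Pcdhga4 averaged 845 ± 131 in old and 942 ± 16.8 in young nerves, and Pcdhga5 637 ± 142 in old and 773 ± 27.4 in young nerves, neither past the threshold. Of the 7 gamma B genes none passed by limma, edgeR or DESeq2, nor at an unadjusted p under 0.05, and their log2 fold changes lay between -0.25 and 0.04.

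**Figure D4:**
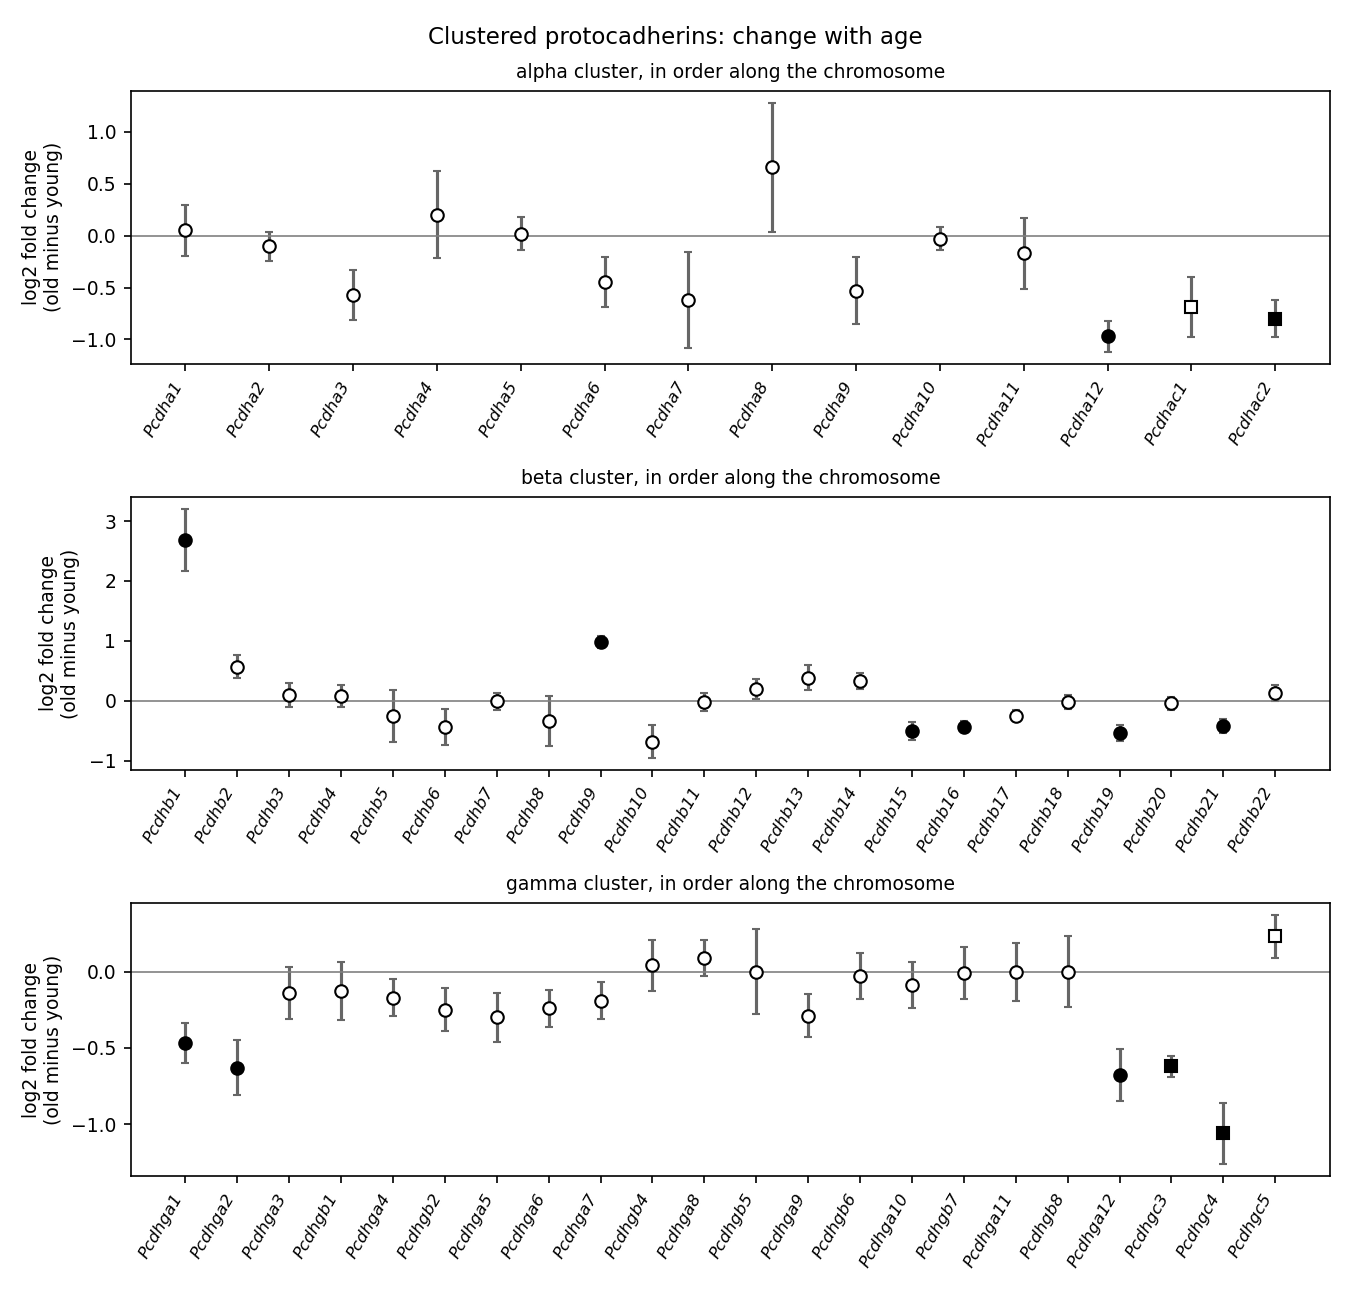
Log2 fold change (old minus young) with its SE for the 58 clustered protocadherins, in their order along the chromosome, in the alpha (top), beta (middle) and gamma (bottom) arrays. Filled symbols mark genes past an adjusted p of 0.05 and squares the C-type genes. Pcdhb1 and Pcdhb9 are the filled points above 0, and the filled squares Pcdhac2, Pcdhgc3 and Pcdhgc4 lie below it.

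Sums over the parts of the arrays describe genes already counted, with no test. The gamma C-type genes summed to 5101, 5439 and 4995 in old nerves, against 7821, 8264 and 7681 in young nerves. The alpha C-type genes summed to 2061, 2865 and 3493 in old nerves, against 5400, 4604 and 4274 in young nerves. Both sums had no overlap between the ages. Most of each sum was 1 gene, Pcdhgc3 (means of 4380 in old and 6700 in young nerves) and Pcdhac2 (2569 in old and 4381 in young nerves). The sums therefore do not show a change common to the C-type genes, and Pcdhgc5 averaged 347 ± 23.9 in old and 297 ± 40.4 in young nerves. The beta genes came to 7724 ± 467 in old and 7492 ± 431 in young nerves, the gamma B genes to 2061 ± 255 in old and 2156 ± 247 in young nerves, and the alternate alpha genes to 2272 ± 321 in old and 2692 ± 177 in young nerves, all 3 with overlap. The gamma A genes lay between, at 4313 ± 323 in old and 5046 ± 32.7 in young nerves, without overlap.

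As shares of an array, which do not depend on the scaling of the libraries, Pcdhgc3 made up 39.8, 37.6 and 36.4% of gamma counts in old nerves, against 44.8, 44.5 and 43.6% in young nerves. Pcdhac2 made up 47.7, 50.3 and 52.7% of alpha counts in old nerves, against 59.7, 58.1 and 58.5% in young nerves. Pcdhb9 made up 13.1 ± 0.978% of beta counts in old nerves, against 6.83 ± 0.528% in young nerves. In each case the old libraries lay wholly on one side of the young ones. In the transcripts used, Pcdhac2 has 2860 nt in exons shared with other alpha genes beside 3028 nt of its own, and Pcdhgc3 has 2119 nt shared with other gamma genes beside 2568 nt of its own, and how the authors' counting divided reads of the shared exons is not stated.

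**Figure D5:**
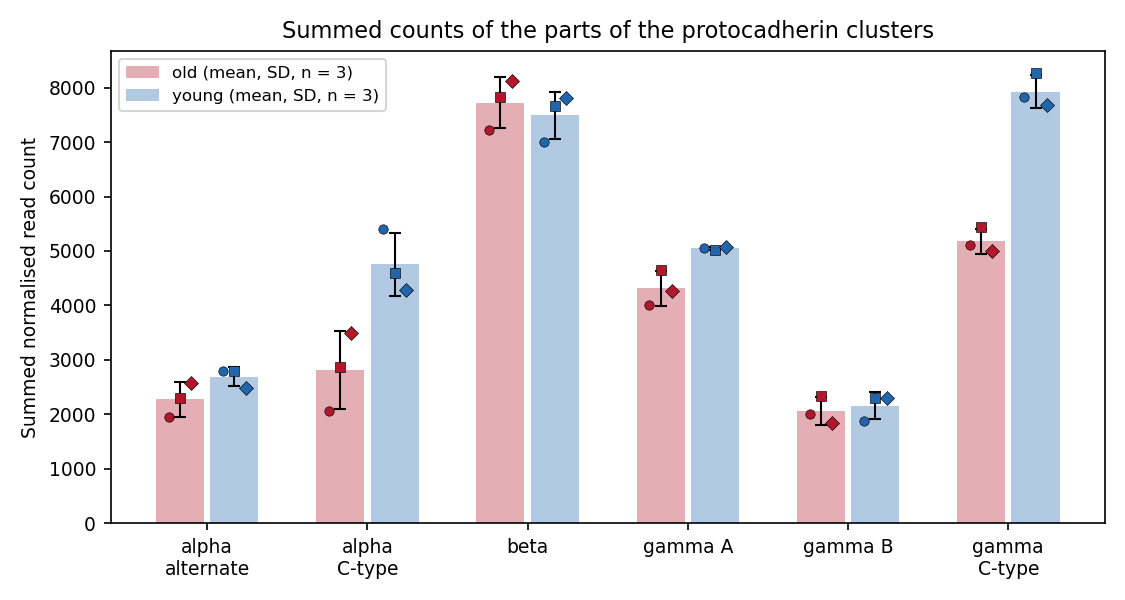
Summed normalised read count of the genes in each part of the protocadherin arrays, with bars for the mean, error bars for the SD (n = 3) and points for single libraries, old in red on the left and young in blue on the right. The C-type sums of the alpha and gamma arrays, which are mostly Pcdhac2 and Pcdhgc3, are lower in all 3 old libraries, while the beta and gamma B sums overlap.

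Partners of the family moved in both directions. Of 11 catenins and plaque proteins 1 rose and 3 fell, with a median log2 fold change of 0.08. The rise was Ctnna1, the alpha-catenin of most tissues (12395 ± 1085 in old and 9547 ± 257 in young nerves; 0.37 ± 0.08, adjusted p = 0.0138), and the falls were the neuronal Ctnnd2 (1349 ± 265 in old and 2418 ± 74.5 in young nerves; -0.86 ± 0.14, adjusted p = 0.00670), Ctnna3 (-0.59 ± 0.16) and the neuronal Ctnna2 (-0.38 ± 0.12). Ctnnb1 (beta-catenin) and Jup did not pass, at 0.09 ± 0.09 and 0.03 ± 0.09. They were named after their values were seen. Desmosomal genes stood the other way from the family, with 5 of 6 tested genes higher and a median of 0.98, among them Dsp (desmoplakin), which had 1536, 1331 and 1535 counts in old nerves, against 459.8, 844 and 825 in young nerves (1.10 ± 0.23, adjusted p = 0.0124). The plakophilins Pkp1 (1.58 ± 0.41), Pkp2 (0.64 ± 0.15) and Pkp3 (1.51 ± 0.34) rose as well. These rises ran beside the rise of the epithelial markers given above.

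The more distant members of the cadherin superfamily, none among the 87, fell in 10 of 13 tested genes with a median of -0.68. Celsr2, a planar polarity cadherin, averaged 2933 ± 427 in old and 5252 ± 195 in young nerves (-0.85 ± 0.11, adjusted p = 0.00490), and Fat1 averaged 7999 ± 1090 in old and 13579 ± 1778 in young nerves (-0.76 ± 0.13). Fat3 averaged 637 ± 166 in old and 1275 ± 155 in young nerves (-1.02 ± 0.19), and the synaptic calsyntenin Clstn3 6793 ± 1666 in old and 11974 ± 817 in young nerves (-0.85 ± 0.18). Nectins and nectin-like adhesion genes fell in 3 of 8, with Cadm3 at 4269 ± 1259 in old and 9501 ± 829 in young nerves (-1.19 ± 0.20, adjusted p = 0.00740), Nectin1 at -0.71 ± 0.15 and Cadm4 at -0.23 ± 0.07.

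Among 14 genes through which protocadherins act on actin and kinases, 8 fell and 2 rose. The falls included the WAVE subunits Wasf1 (470.3 ± 102 in old and 1081 ± 132 in young nerves; -1.21 ± 0.17, adjusted p = 0.00529), Wasf3 (-1.03 ± 0.14) and Cyfip2 (-0.77 ± 0.12) and the kinase Taok2 (-0.54 ± 0.07). Of 10 genes of cadherin cleavage 2 fell, Furin (-0.49 ± 0.08), which trims the cadherin propeptide, and the sheddase Adam10 (-0.26 ± 0.06), and 2 rose, the gamma-secretase subunits Aph1c (0.59 ± 0.13) and Psenen (0.45 ± 0.14). Of 12 regulators of the protocadherin arrays 3 fell, Wiz (-0.55 ± 0.07), Setdb1 (-0.31 ± 0.07) and Ctcf (-0.22 ± 0.06), which binds the promoters and enhancers of the arrays and is named after its values were seen, and 2 rose, the cohesin subunits Stag1 (0.36 ± 0.09) and Stag2 (0.37 ± 0.10). Of 6 repressors of Cdh1 none passed by limma, edgeR or DESeq2, and 2 were lower at an unadjusted p under 0.05. Counts in these lists are to be read against the 15.9% of all genes higher and 18.7% lower.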

How the data were processed

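RNA was measured in 3 old and 3 young auditory nerves. Per the labels' protocols, nerves were microdissected, a miRNeasy kit gave total RNA, poor samples were left out and a TruSeq kit was used for libraries. Per the submitters' processing notes the tools were TopHat2, Partek and DESeq2 and the build was mm10, with versions, order, annotation and strand setting not given in the sources used here. Values are a signal, namely read counts that the authors divided by a size factor for each library, as the deposited numbers themselves show. Dividing by the value of 1 read gave whole reads within 0.1 for 99.925% to 99.971% of values. The FDR and signed fold change (a score) in the authors' deposited table come from the authors' own comparison, and were used only as an alternative, the FDR for the calls and the fold for the direction and size.

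Values plus 1 were log2-transformed and tested with limma 3.58.1 (trended empirical Bayes variances, two-sided, Benjamini-Hochberg over 15882 genes that edgeR's filterByExpr kept at a minimum count of 10 and total of 15). With 3 against 3, an exact permutation test cannot go below p = 0.1, so p-values rest on limma's model. Alternatives used edgeR 4.0.16, DESeq2 1.42.0, other pseudocounts, filters and scalings, trends in transcript length and GC content (GENCODE M21) removed with mgcv 1.9.3, and libraries left out. Of these steps only size-factor scaling and the limma fit were run on simulated counts. Those counts were drawn independently for each library, so they do not hold the spread between libraries seen in young 1 and old 2. Replicates of one age were not repeats of 1 library (their counts gave a chi-square of 19.3 to 67.2 per degree of freedom).

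The members and gene lists were chosen with earlier results of these data known. All cadherins and other protocadherins are named, of each clustered array up to the 4 smallest p past the threshold and the 3 highest means, and of each pathway list up to the 4 smallest p.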

Additional observations from a re-analysis of the deposited data

How the results depend on the processing

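None of the 87 genes reversed direction with a call on either side. Over their alternatives 1492 values kept the side of the threshold, 128 lost the call and 21 gained it. Pseudocounts of 0.5 and 5, TMM scaling and edgeR changed the calls of at most 1 of the 87 genes. DESeq2, upper-quartile scaling and the authors' deposited FDR each gave 2 cadherins higher in old nerves, and upper-quartile scaling gave 4 clustered genes higher. A filter on a mean of at least 50 gave 1 clustered gene higher. Pcdhb1, with means of 69.6 in old and 11.7 in young nerves, was removed by that filter and not tested. With the length and GC trends removed 1974 genes were lower, 7 clustered and 3 other protocadherins among them. Without both young 1 and old 2 there were 831 genes higher and 945 lower, with 0 cadherins higher and 1 lower, 3 clustered genes lower and 2 other protocadherins lower. Leaving out 1 library gave 1159 to 2757 genes higher and 1430 to 3360 lower, 0 to 1 cadherins higher and 2 to 6 lower, 2 to 3 clustered genes higher and 3 to 10 lower, and 4 to 6 other protocadherins lower. The causes were not tested. The labels do not say whether the replicate numbers do more than name the samples. Same-numbered samples did not deviate together (correlations -0.291, -0.412 and -0.05). With 3 libraries per age these correlations cannot settle whether same-numbered samples were handled together. With the replicate block 1078 genes were higher and 1633 lower, with 0 cadherins higher, 4 clustered and 4 other protocadherins lower. It kept 13 of the 25 calls of the main fit. With the replicate block and trends removed 10 genes were higher and 2 lower, and 0 of the 87 passed. Cdh26 and Pcdh8, which had few reads, had log2 fold changes with an SE of 0.93 and 0.82. Cdh8 and Pcdh9, with more reads, had an SE of 0.81 and 0.67. The parts of read depth and of spread between libraries in these SEs were not tested.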
